A study of Mus musculus with 6 samples.

Results

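MAP kinase feedback inhibitors are proteins that a MAP kinase pathway switches on and that then damp the same pathway. The genes examined were Spred1, Spred2, Dusp1, Dusp2, Dusp4, Dusp5 and Dusp6, taken by gene symbol from the platform annotation. Of these 7 genes, 6 were found, with 7 probe sets among the 17551 of the deposited table and 6 of the 12780 genes that could be named. Dusp6, the phosphatase best known for acting on ERK in the cytoplasm, is not named in that annotation and was not analysed here. The genes were picked with results of the same contrast in view, so their differences between groups are given as a description, with no test.

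The 3 anti-CD40 stimulated and 3 unstimulated samples were migratory type 1 conventional dendritic cells (cDC1) of wild-type C57BL/6 mice. These are the dendritic cells that carry antigen from skin to the draining lymph node and present it to CD8 T cells. All 6 samples were sorted from skin-draining lymph nodes as B220-, CD326-, MHC II high, CD11c intermediate, XCR1+, Sirpa- and CD40+ cells, so the unstimulated cells carried CD40 too. The labels used here call the samples of each group biological replicates. They do not state the dose, route and duration of the stimulation, the age of the mice or whether each sample came from separate animals. The spread between replicates may be partly technical. Each sample was read on 1 array, and 3 arrays a group limit the precision of every value below.

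CD40 is a receptor of the TNF receptor family that signals through TRAF adaptors to NF-kB and to the ERK, p38 and JNK MAP kinases. Spred proteins sit at the plasma membrane and recruit neurofibromin, which switches Ras off, so they act above Raf, MEK and ERK. Dusp proteins are dual-specificity phosphatases that remove phosphate from the activated MAP kinases themselves, and many of their genes are in turn transcribed when those kinases are active.

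Promoter windows from RefSeq (GRCm38.p6, 250 bases before to 50 after each gene start) were present for 6 of the 7 genes, all but Dusp4. The 4 windows below are shown because these genes carry the results: Spred2 stood apart between the groups, Dusp1 and Dusp2 varied together across the arrays, and Dusp5 ran against them between the groups. They are written 5′ to 3′ on the strand of the gene, and capitals mark the motif matches.
Spred2, chr11:19924192-19924491, plus strand: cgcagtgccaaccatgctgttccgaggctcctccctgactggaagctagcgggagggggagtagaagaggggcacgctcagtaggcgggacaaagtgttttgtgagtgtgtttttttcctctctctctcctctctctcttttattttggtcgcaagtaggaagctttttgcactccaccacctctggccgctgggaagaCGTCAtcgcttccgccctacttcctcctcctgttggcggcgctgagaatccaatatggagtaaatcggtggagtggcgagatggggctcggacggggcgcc
Dusp1, chr17:26508423-26508722, minus strand: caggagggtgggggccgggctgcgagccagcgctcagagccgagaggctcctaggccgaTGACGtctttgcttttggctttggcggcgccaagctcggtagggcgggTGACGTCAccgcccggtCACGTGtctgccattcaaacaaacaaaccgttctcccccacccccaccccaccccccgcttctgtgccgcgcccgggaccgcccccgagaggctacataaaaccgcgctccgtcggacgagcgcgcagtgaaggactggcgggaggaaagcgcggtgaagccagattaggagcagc
Dusp2, chr2:127335909-127336208, plus strand: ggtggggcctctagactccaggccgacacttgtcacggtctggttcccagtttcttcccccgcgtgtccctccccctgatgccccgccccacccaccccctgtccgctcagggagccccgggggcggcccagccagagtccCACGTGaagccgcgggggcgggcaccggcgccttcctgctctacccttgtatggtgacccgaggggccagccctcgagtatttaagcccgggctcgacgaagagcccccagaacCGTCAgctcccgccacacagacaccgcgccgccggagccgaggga
Dusp5, chr19:53528895-53529194, plus strand: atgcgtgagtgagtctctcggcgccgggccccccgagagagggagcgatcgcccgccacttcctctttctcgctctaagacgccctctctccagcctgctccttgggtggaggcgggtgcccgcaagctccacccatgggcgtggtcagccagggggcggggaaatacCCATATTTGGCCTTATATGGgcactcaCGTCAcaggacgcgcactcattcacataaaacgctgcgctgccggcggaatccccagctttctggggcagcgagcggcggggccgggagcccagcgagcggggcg

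Motifs were searched by letters on both strands. Dusp1 held the full cAMP response element TGACGTCA, bound by CREB factors, with its first base at -143 from the gene start, and 1.79% of the 32851 promoter windows of the same length in the table held this motif. The half-site TGACG, which lies inside the full element on either strand, matched in Spred2 at -51, in Dusp1 at -191, in Dusp2 at 6 and in Dusp5 at -55, and 20.8% of all windows held it. The E-box CACGTG matched in Dusp1 at -126 and in Dusp2 at -109, against 7.15% of all windows. Dusp5 held 2 adjacent matches to the CArG box of serum response factor, at -82 and -72, and 1.63% of all windows held that motif. The AP-1 motif TGANTCA, the ETS motif CCGGAAGT and the NF-kB consensus had 0 matches in the 6 windows, against 7.81%, 3.89% and 4.51% of all windows. The share of G and C bases was 57% in the Spred2 window, 67% in Dusp1, 70.7% in Dusp2 and 66.7% in Dusp5. The median over all windows was 52.7%, and the shares of windows with a motif were not matched for it. These matches describe letters in 300 bases and show no binding.

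Across all 12780 genes the table gives little room for calls. Only 2 genes, or 0.0156%, passed the threshold of limma (adjusted p under 0.05), both higher in stimulated cells, and over all genes the median log2 difference was 0.005. The median intensity per array lay between 51.9 and 56.3. Arrays differed more in how widely their values were spread: their interquartile range on the log2 scale was 2.31, 1.75 and 2.03 on stimulated arrays 1, 2 and 3, against 2.19, 1.74 and 1.92 on unstimulated arrays 1, 2 and 3. Of the cDC1 markers, 9 of 10 were in the table. Irf8 and Batf3, the transcription factors of the lineage, had group means of 11.64 and 9.76 in stimulated and 11.00 and 9.35 in unstimulated cells, while the sort marker Xcr1 was dim on all arrays (4.21 to 4.91). Of the 9, 5 had positive and 4 negative differences, with Cadm1 higher (0.36) and Cd24a lower (-0.48) without overlap. Of 8 migratory markers, 7 had positive differences, with a median of 0.49. Cd40, Cd80 and Socs2 lay higher without overlap, by 1.01, 0.60 and 0.48, whereas Ccr7 and Fscn1 overlapped, at 0.15 and 0.83. Over all genes, 3.68% lay higher and 3.46% lower without overlap. Epcam, which encodes the CD326 that the sort selected against, was dim at 5.31 in stimulated and 4.74 in unstimulated cells and also lay higher without overlap (0.57). Cd207, listed with Epcam as a Langerhans cell marker, overlapped at -0.07. Sirpa, which the sort also selected against, was dim at 4.83 in stimulated and 4.67 in unstimulated cells. It lay higher without overlap (0.15). The limma adjusted p was 1 for each of these markers. Of 8 T and NK cell markers 5 were measured and all 5 had positive differences, with Cd3e higher without overlap (0.20). The log2 of the summed intensity of the 5 was 7.31 to 8.22 in stimulated and 7.10 to 7.83 in unstimulated cells. The part of these marker differences in the results below was not tested.

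Spred2, which limits Ras signalling at the membrane, was higher in anti-CD40 stimulated cDC1. Its brighter probe set (10374455) read 6.51, 5.81 and 6.35 on the log2 scale in stimulated replicates 1, 2 and 3, against 4.81, 4.76 and 4.11 in unstimulated replicates 1, 2 and 3. No array of one group reached into the range of the other, and the lowest stimulated value was 1.01 above the highest unstimulated one. The group means were 6.23 ± 0.37 in stimulated and 4.56 ± 0.39 in unstimulated cells (SD, n = 3 each), a log2 difference of 1.67 ± 0.27 (SE) or 3.17-fold.

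The second Spred2 probe set (10374464) differed in the same direction, but it was read from the same RNA on the same arrays and adds no independent sample. It read 6.14, 5.44 and 6.15 in stimulated replicates 1, 2 and 3, against 4.39, 4.39 and 4.80 in unstimulated replicates 1, 2 and 3. The groups again did not overlap, and the log2 difference was 1.39 ± 0.25 (SE), or 2.61-fold. Among the unstimulated arrays the 2 probe sets differed: replicate 3 was the lowest on the first and the highest on the second. In linear intensity the unstimulated samples were dim: 27.99, 27.04 and 17.33 on the first probe set, where the stimulated samples had 91.18, 56.27 and 81.75. For every probe set of the table the higher of the 2 group means was at least 20.001, and the unstimulated mean of Spred2 (23.6) was itself above that level. Background was not analysed here, so a fold taken against such low intensities is uncertain. Such a fold can understate the change in RNA, and the choice of the gene with this contrast in view can overstate it.

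Spred1, whose product also binds neurofibromin, differed in the other direction. It read 7.21, 6.89 and 6.03 in stimulated replicates 1, 2 and 3, against 6.92, 7.39 and 7.29 in unstimulated replicates 1, 2 and 3. The groups overlapped, and stimulated replicate 3 was the lowest array. The means were 6.71 ± 0.61 in stimulated and 7.20 ± 0.25 in unstimulated cells (SD, n = 3 each), and the log2 difference was -0.49 ± 0.32 (SE). Without stimulated replicate 3 it was -0.15.

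**Figure D1:**
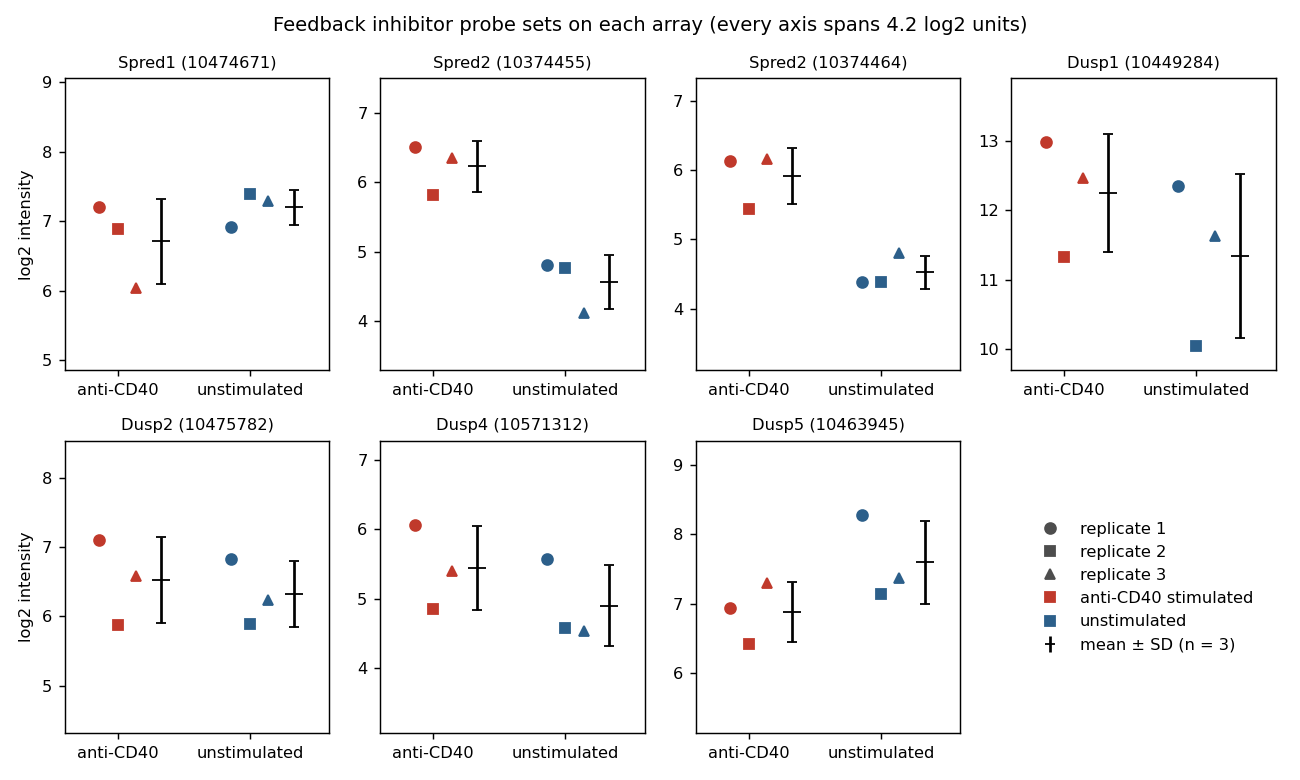
Log2 intensity of the 7 probe sets on each array, anti-CD40 stimulated in red and unstimulated in blue, with the replicate number as symbol and the mean ± SD (n = 3) in black. Both Spred2 probe sets have separate groups, whereas the groups overlap for the other 5 probe sets.

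Of the 6 genes, 1 had groups that did not overlap with stimulated cells higher (Spred2), where 3.68% of all genes did. With stimulated cells lower there were 0 of 6, against 3.46% of all genes. The genes were chosen on this contrast, so nothing is read from these counts. The median log2 difference of the 6 was 0.37, with 4 positive and 2 negative, and it ran from 0.07 without stimulated replicate 1 to 0.68 without stimulated replicate 2.

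Dusp1, also called MKP-1, is a nuclear phosphatase of p38, JNK and ERK that restrains inflammatory cytokine output in myeloid cells. It read 12.98, 11.32 and 12.46 in stimulated replicates 1, 2 and 3, against 12.35, 10.04 and 11.62 in unstimulated replicates 1, 2 and 3. The groups overlapped, although each stimulated array was above the unstimulated array of the same number, by 0.63, 1.28 and 0.84. The means were 12.25 ± 0.85 in stimulated and 11.34 ± 1.18 in unstimulated cells (SD, n = 3 each), and the log2 difference was 0.91 ± 0.64 (SE). Without unstimulated replicate 2, the lowest array, it was 0.27, and without unstimulated replicate 1 it was 1.42.

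Dusp1 also had the largest spread within groups of the genes examined. The genes were chosen with results of this contrast in view, so the spread may not be free of that choice. Its within-group SD was 1.03, larger than that of 99.2% of all genes, against a median of 0.28 over all genes. This rank was not matched for intensity. Dusp1 was bright, with group means of 12.25 and 11.34, where the median log2 intensity over all genes was 5.74. The replicates numbered 1 exceeded those numbered 2 by 1.66 in stimulated and 2.31 in unstimulated cells. In both groups the order from high to low was replicate 1, 3 and 2, which is also the order of the interquartile ranges of the arrays. With that interquartile range as a covariate the difference between groups was 0.61.

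Dusp2, also called PAC-1, is a nuclear phosphatase of ERK and p38 that is prominent in activated leukocytes. It read 7.11, 5.88 and 6.59 in stimulated replicates 1, 2 and 3, against 6.83, 5.90 and 6.24 in unstimulated replicates 1, 2 and 3. The groups overlapped almost wholly, and the lowest arrays of both groups, numbered 2, had nearly the same value. The log2 difference was 0.20 ± 0.36 (SE). It was -0.09 without stimulated replicate 1, -0.01 without unstimulated replicate 2 and 0.52 without stimulated replicate 2.

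Dusp4, also called MKP-2, is another nuclear phosphatase, which acts on ERK and JNK. It read 6.06, 4.86 and 5.41 in stimulated replicates 1, 2 and 3, against 5.57, 4.58 and 4.54 in unstimulated replicates 1, 2 and 3. The groups overlapped, with unstimulated replicate 1 above 2 of the stimulated arrays. The means were 5.44 ± 0.60 in stimulated and 4.90 ± 0.58 in unstimulated cells (SD, n = 3 each), a log2 difference of 0.54 ± 0.39 (SE). Left-out arrays moved it from 0.23 without stimulated replicate 1 to 0.88 without unstimulated replicate 1.

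Dusp5, a nuclear phosphatase specific for ERK, had the lowest difference of the 6 genes. It read 6.93, 6.42 and 7.29 in stimulated replicates 1, 2 and 3, against 8.28, 7.14 and 7.37 in unstimulated replicates 1, 2 and 3. The groups overlapped by 1 stimulated array, replicate 3, which was above unstimulated replicate 2, and the highest array of all was unstimulated replicate 1. The means were 6.88 ± 0.44 in stimulated and 7.60 ± 0.60 in unstimulated cells (SD, n = 3 each), a log2 difference of -0.72 ± 0.35 (SE). It was -0.38 without unstimulated replicate 1. Each stimulated array was below the unstimulated array of its number, with differences of -1.34, -0.72 and -0.08.

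Within the groups most of the genes varied together. After subtraction of each group's mean, the deviations of Dusp1 and Dusp2 over the 6 arrays had a Pearson's r of 0.92, those of Dusp2 and Dusp4 0.95, and those of Dusp1 and Dusp4 0.81. Dusp5 also followed them, with r of 0.82 to Dusp1, 0.79 to Dusp2 and 0.78 to Dusp4, although its difference between the groups had the other sign. Spred2 followed them less closely, with r of 0.76 to Dusp4, 0.63 to Dusp2, 0.55 to Dusp5 and 0.32 to Dusp1. Spred1 did not, with r from -0.65 (Dusp5) to -0.05 (Dusp4). These correlations are descriptions over 6 arrays with 3 to a group, and the arrays share the spread of intensities noted above, whose part was not tested. The replicate numbered 1 was above that numbered 2 in both groups for 5 of the 6 genes, and also for 40.1% of all genes. Among the lists described below it was so for 0 of 3 Sprouty and Spred genes and 2 of 5 other MAP kinase phosphatases. It was so for 5 of 12 atypical phosphatases and, at the other end, 10 of 10 ERK effector genes. The within-group SDs of Spred2, Spred1, Dusp5, Dusp2 and Dusp4 were 0.38, 0.46, 0.52, 0.55 and 0.59, larger than those of between 68.3% (Spred2) and 89.3% (Dusp4) of all genes.

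**Figure D2:**
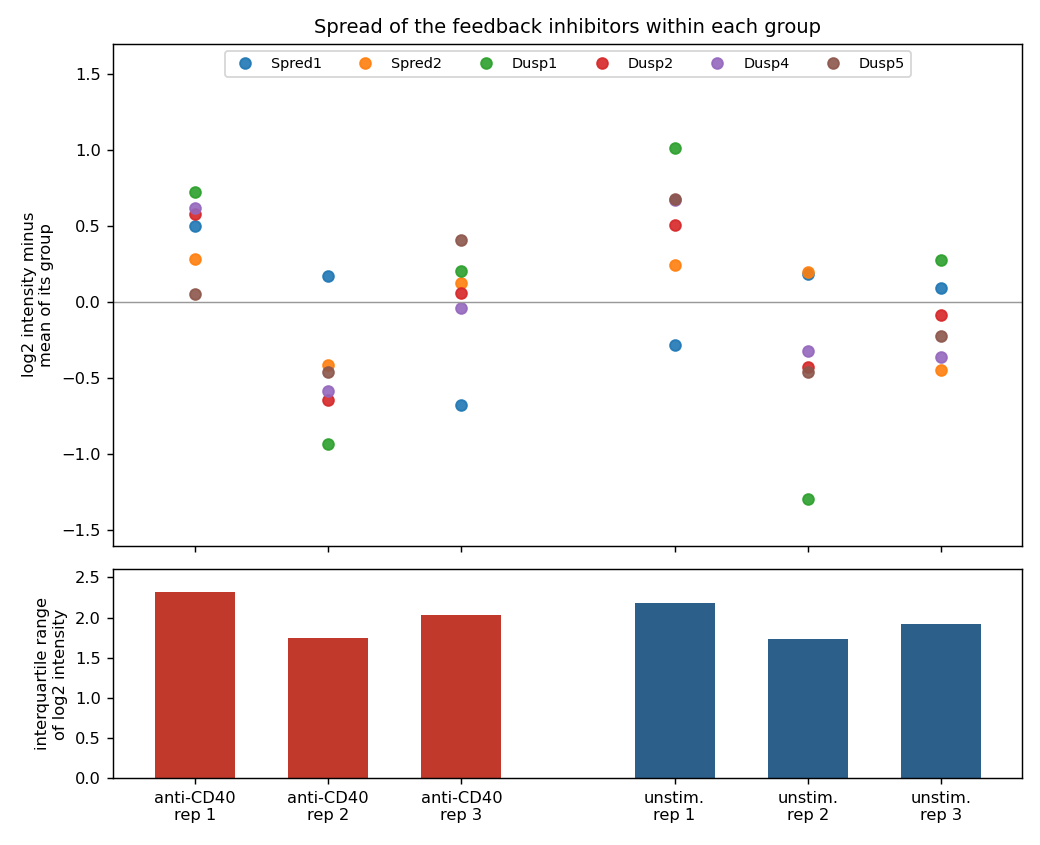
Upper panel: log2 intensity of each of the 6 genes minus the mean of its group, on the 3 anti-CD40 stimulated and then the 3 unstimulated arrays. Lower panel: interquartile range of log2 intensities on the same arrays. Dusp1, Dusp2, Dusp4 and Dusp5 lie above their group mean on the replicates numbered 1 and below it on those numbered 2.

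The genes whose log2 intensities were most like each of these over the 6 arrays were found by Pearson's r. For Spred2 they were Traf4 (r = 0.990), a TRAF family adaptor, and Bend4 (r = 0.989), with log2 differences of 0.59 and 0.74. Every r of this paragraph takes in the difference between the groups, on which the genes examined were chosen. After subtraction of group means, r to Spred2 was 0.937 for Traf4 and 0.979 for Bend4. The genes most like Spred1 were Msx3 (r = 0.988) and Commd10 (r = 0.985). For Dusp1 they were Sdf4 (r = 0.997) and Rhebl1 (r = 0.995), and for Dusp2 Rptor (r = 0.997), the mTORC1 subunit raptor, and Tcf25 (r = 0.997). For Dusp4 they were Rnf122 (r = 0.997) and Ppm1g (r = 0.996), and for Dusp5 Ndrg4 (r = 0.990) and Zfp36l1 (r = 0.987), an mRNA decay factor. An r of at least 0.95 was reached by 234 genes for Dusp1, 415 for Dusp2 and 164 for Dusp4, against 23 for Spred2 and 15 each for Spred1 and Dusp5. The numbers describe 6 points each.

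Other genes of the same families and of the pathway were read from 8 lists with 155 genes, of which 125 were measured. Of these, 0 passed the adjusted threshold of limma in either direction, 3 were higher and 1 lower at an unadjusted p under 0.05, and the smallest adjusted p was 0.253. These are 2.4% and 0.8% of the 125, beside 2.07% and 1.42% of all genes at the same threshold. Groups without overlap were found for 4 genes in the higher and 3 in the lower direction, 3.2% and 2.4% of the 125, beside 3.68% and 3.46% of all genes. Their median log2 difference was 0.01.

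The other MAP kinase phosphatases had 5 of 6 genes measured and a median log2 difference of -0.09, beside 0.005 for all genes. Dusp16, also called MKP-7 and a phosphatase of JNK and p38, read 7.34, 6.60 and 6.42 in stimulated replicates 1, 2 and 3, against 6.63, 6.42 and 6.05 in unstimulated replicates 1, 2 and 3, a difference of 0.42 ± 0.28 (SE). Its groups overlapped. Dusp10, the JNK and p38 phosphatase MKP-5, differed by -0.09 ± 0.25 (SE), and the ERK phosphatases Dusp7 and Dusp9 by -0.08 ± 0.20 and -0.09 ± 0.17 (SE). Dusp8, a phosphatase of JNK and p38, differed by -0.16 ± 0.21 (SE). Each of the 5 had a limma adjusted p of 1.

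Of the Sprouty genes, whose products inhibit receptor signalling to Ras, and Spred3, 3 of 5 were measured, with a median difference of -0.09. Spred3, the third Spred gene, was at 5.54 ± 0.19 in stimulated and 5.66 ± 0.10 in unstimulated cells (SD, n = 3 each) and differed by -0.11 ± 0.17 (SE). Spry1 and Spry4 were dim, at 4.31 and 4.51 in stimulated and 4.40 and 4.44 in unstimulated cells, and differed by -0.09 ± 0.16 and 0.07 ± 0.18 (SE). At such low intensities a small difference may not be detectable. The limma adjusted p was 1 for each.

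Among atypical dual-specificity phosphatases, which lack the MAP kinase binding domain of the classical ones, and the slingshot genes listed with them, Dusp14 had the smallest p of the 125 pathway genes. Dusp14, also called MKP-6, read 8.64, 7.99 and 8.21 in stimulated replicates 1, 2 and 3, against 6.86, 6.88 and 7.18 in unstimulated replicates 1, 2 and 3. The groups did not overlap. The means were 8.28 ± 0.33 in stimulated and 6.97 ± 0.18 in unstimulated cells (SD, n = 3 each), a difference of 1.31 ± 0.22 (SE) or 2.47-fold, and the gene did not pass over all genes (limma adjusted p = 0.253). With array weights its adjusted p was 0.0388, and over all 14 alternatives it ran from 0.0388 to 1. The other named genes of this list were Dusp11, an RNA phosphatase, at -0.28 ± 0.17 (SE), and Ssh1, the cofilin phosphatase slingshot, at -0.06 ± 0.79 (SE). Dusp11 lay lower in stimulated cells without overlap and did not pass over all genes either. The 12 measured genes had a median of -0.07.

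**Figure D3:**
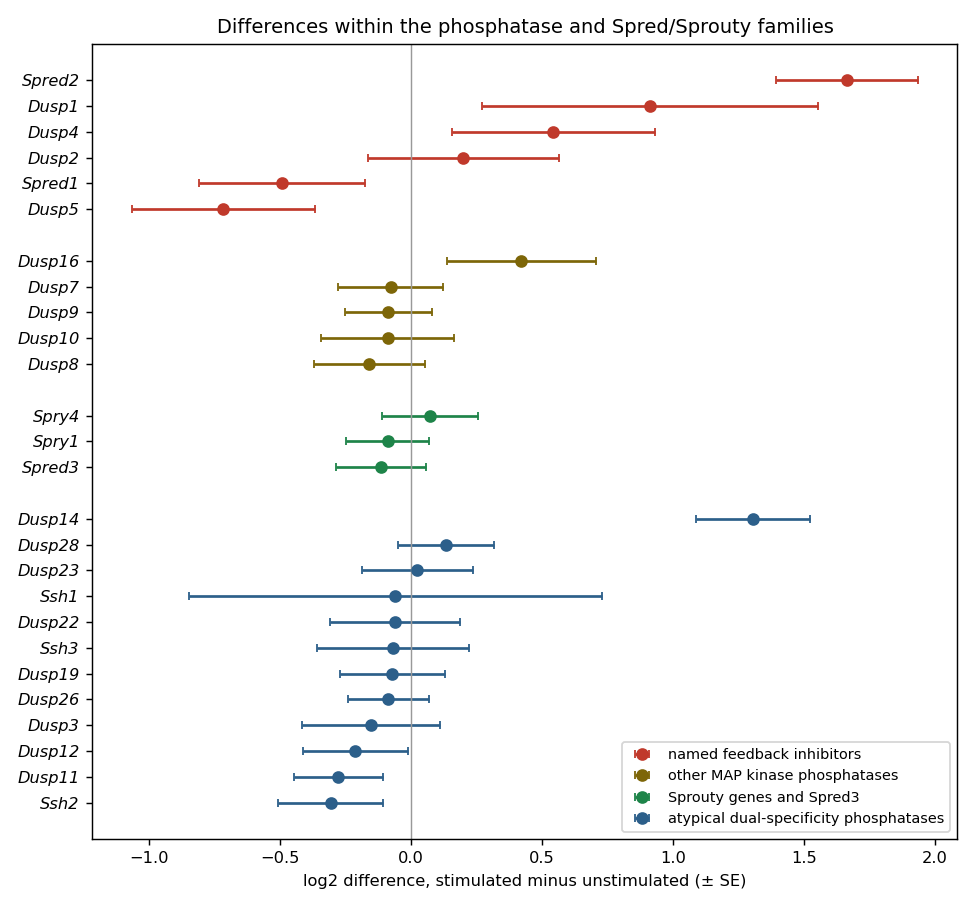
Log2 difference, stimulated minus unstimulated, ± SE for the 6 feedback inhibitors and for their measured relatives. Spred2 (1.67) and Dusp14 (1.31) lie farthest to the right, and Dusp5 (-0.72) farthest to the left.

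The other negative regulators of Ras and ERK (22 of 24 measured) had a median of -0.05. The ubiquitin ligase gene Cblb differed by -0.47 ± 0.36 (SE) and the Ras GTPase-activating genes Rasa1 and Rasa2 by -0.57 ± 0.26 and -0.01 ± 0.35 (SE). The Ras to ERK cascade (20 of 28) had a median of 0.06. Braf, the Raf kinase below Ras, read 8.26, 7.67 and 7.97 in stimulated replicates 1, 2 and 3, against 7.73, 7.10 and 7.03 in unstimulated replicates 1, 2 and 3, a difference of 0.68 ± 0.25 (SE, limma adjusted p = 1). The small GTPase genes Rras2 and Rras differed by -0.32 ± 0.20 and 0.17 ± 0.35 (SE).

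The p38 and JNK cascades (27 of 32) had a median of 0.03. Tab3, an adaptor of the kinase TAK1, was the 1 pathway gene lower at an unadjusted p under 0.05, at 7.73, 6.52 and 7.27 in stimulated replicates 1, 2 and 3, against 7.77, 7.92 and 8.04 in unstimulated replicates 1, 2 and 3. Its groups did not overlap and it differed by -0.73 ± 0.31 (SE, limma adjusted p = 1). Its relative Tab2 differed by 0.29 ± 0.27 (SE) and the kinase gene Map3k1 by -0.34 ± 0.47 (SE).

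Below the kinases, the ERK effector kinases and factors (10 of 14) had a median of 0.06. The kinase gene Rps6ka5, which encodes MSK1, differed by -0.58 ± 0.27 (SE) and Creb1, the factor that binds the cAMP response element, by -0.21 ± 0.35 (SE). Immediate early and ERK response genes (26 of 30) had a median of 0.12, with 18 positive and 8 negative differences. Gadd45b, a stress response gene, differed by 0.49 ± 0.53 (SE) and the nuclear receptor gene Nr4a2 by -0.14 ± 0.22 (SE). Egr1, a classical target of ERK through serum response factor, was dim at 4.76 ± 0.31 in stimulated and 4.37 ± 0.11 in unstimulated cells (SD, n = 3 each), a difference of 0.38 ± 0.20 (SE). The limma adjusted p of these genes was 1.

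Leaving out 1 array turned the sign of several list medians. That of the ERK effectors was -0.25 without stimulated replicate 1 and 0.38 without unstimulated replicate 1. That of the Ras to ERK cascade was -0.04 without stimulated replicate 1 and 0.27 without stimulated replicate 2. For the p38 and JNK cascades, leaving out unstimulated replicate 2 gave -0.06 and leaving out unstimulated replicate 1 gave 0.24. No direction is read from these medians.

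**Figure D4:**
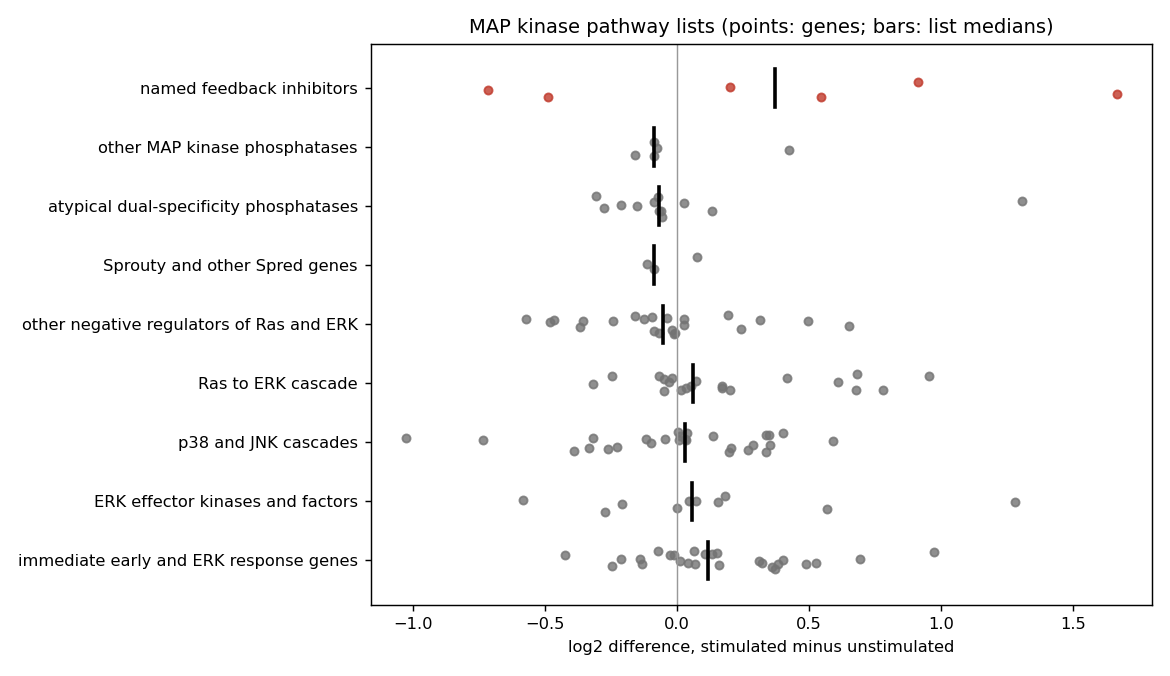
Log2 difference, stimulated minus unstimulated, for each measured gene of the feedback inhibitors (red) and of the 8 pathway lists (grey), with the median of each list as a black bar. The medians of the pathway lists lie between -0.09 and 0.12, and that of the 6 feedback inhibitors, which were chosen on this contrast, at 0.37.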

How the data were processed

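RNA of 6 sorted cDC1 samples was read on Affymetrix arrays in 1 colour. The tools named per the submitters' processing notes are Affymetrix Expression Console and RMA, which corrects background, quantile-normalises arrays and summarises probes (versions not stated). The authors deposited intensities for 17551 probe sets on a linear scale (6.97 to 13701), and log2 was taken here. Of the probe sets, 13963 had 1 gene symbol in the platform annotation, 970 several and 2618 none. The brightest probe set stood for each of 12780 genes.

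The comparison used limma 3.58.1 under R 4.3.3 (lmFit, eBayes, no covariates, two-sided), with Benjamini-Hochberg adjustment over all genes; the second Spred2 probe set came from the same fit over all 13963 probe sets. The genes examined and all lists were chosen with earlier results of these data known. Named are every gene examined, all measured Sprouty, Spred and further MAP kinase phosphatase genes, the 2 brightest and the most changed gene by moderated statistic of each other list, and the 2 most alike genes by correlation, leaving out predicted genes. Some genes of the closing section were picked with their values in view, as said there. The fit was tested on simulated data with known changes and noise drawn independently for each gene and array. Deviations that genes share on an array were not simulated. Figures were drawn with matplotlib 3.10.9.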

Additional observations from a re-analysis of the deposited data

How the results depend on the processing

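The differences of Spred1, Spred2, Dusp1, Dusp4 and Dusp5 kept their sign under all alternatives run, and that of Dusp2 changed sign without stimulated replicate 1 and without unstimulated replicate 2. With array weights, the log2 differences of Spred1, Spred2 and Dusp5 were -0.92, 2.08 and -0.32. These values lie outside the ranges given next. The weighted differences of Dusp1, Dusp2 and Dusp4 were 0.83, 0.31 and 0.81, within those ranges. When each array was left out in turn, the differences ran from -0.74 to -0.15 for Spred1, 1.44 to 1.87 for Spred2, 0.27 to 1.42 for Dusp1, -0.09 to 0.52 for Dusp2, 0.23 to 0.88 for Dusp4 and -0.94 to -0.38 for Dusp5, and the median of the 6 from 0.07 to 0.68. With the dimmest genes left out (1 of 3 equal parts), Dusp4 was not tested and the median of the other 5 was 0.20.

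Counts of calls over all genes moved with the processing. They were 2 higher and 0 lower in the fit reported, 5 and 1 after quantile normalisation once more, 28 and 18 with array weights, 11 and 4 with the interquartile range as covariate, and 3 and 1 after centring on array medians. When any array was left out, 0 were higher and 0 lower, in a fit with fewer samples. With the replicate number as a block there were 30 higher and 8 lower. Same-numbered samples deviated together with r of 0.73, 0.59 and 0.06, and the labels do not pair them, so the block is given here alone. It leaves each difference as it was. Among the 125 pathway genes 1 was called higher with array weights (Dusp14, 1.11) and 0 under the other alternatives, where Dusp14 had an adjusted p of 0.0578 with the replicate block. The cause of these shifts was not tested. With 3 arrays a group and background not analysed, small differences of dim genes could not be resolved.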

Other observations

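A few pathway genes outside the rule for named genes were singled out after their values were seen, and each had a limma adjusted p of 1. Map3k8, which encodes the kinase TPL2 that links TNF family receptors to ERK in myeloid cells, read 8.11, 7.04 and 7.65 in stimulated replicates 1, 2 and 3, against 7.22, 6.67 and 6.85 in unstimulated replicates 1, 2 and 3, a log2 difference of 0.68 ± 0.30 (SE) with overlapping groups. Ptpn11, the phosphatase SHP2 that promotes Ras signalling, read 6.94, 7.09 and 6.87 in stimulated replicates 1, 2 and 3, against 6.76, 5.94 and 6.37 in unstimulated replicates 1, 2 and 3. Its groups did not overlap and it differed by 0.61 ± 0.23 (SE). Map3k14, which encodes the NF-kB inducing kinase NIK, was at 8.51 ± 0.65 in stimulated and 9.54 ± 0.85 in unstimulated cells (SD, n = 3 each), a difference of -1.03 ± 0.48 (SE). Mknk2, an ERK and p38 effector kinase gene, read 9.39, 6.75 and 8.55 in stimulated replicates 1, 2 and 3, against 8.80, 5.29 and 6.77 in unstimulated replicates 1, 2 and 3, with the arrays numbered 2 lowest in both groups, as for Dusp1.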
